A study of Sus scrofa with 6 samples.

Results

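The WDFY3 circRNAs are the circular RNAs formed from exons of the pig gene WDFY3, and they were chosen by 1 criterion, the host gene given for each circRNA in the table. The gene itself was selected on the number of circRNAs detected for it, so that number is given as a description and was not tested. By this criterion 27 of the 2552 exonic circRNAs and 0 of the 1798 intronic circRNAs analysed here were members. Of the 659 genes that hosted exonic circRNAs, 2 hosted more than WDFY3, and TIAM1 hosted as many.

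Testis RNA was depleted of ribosomal RNA, digested with RNase R, an enzyme that degrades linear RNA, and sequenced from 6 Landrace boars to compare circRNAs before and after sexual maturity. The Piglet-D30 group held 3 piglets aged 30 days and the Adult-D210 group 3 sexually mature boars aged 210 days that were producing sperm normally. A single testis per boar was used, each library was taken as 1 boar, and the labels give the same breed and no treatment for both groups. Whole testis mixes germ cells, Sertoli cells, Leydig cells and others, so that fewer cells of a type and less RNA per cell cannot be told apart in these values.

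A circRNA forms when the end of an exon is spliced back to the start of the same or an upstream exon, and 1 gene can give several circRNAs that share a start or an end. WDFY3, also known as ALFY, encodes a large scaffold protein with a BEACH domain, WD40 repeats and a FYVE domain that binds a phosphoinositide lipid. The protein links ubiquitinated protein aggregates to the machinery of selective autophagy, the delivery of chosen cargo to lysosomes. In the testis, autophagy is known for roles in acrosome formation and in steroid production by Leydig cells.

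The table held 33091, 18445 and 18618 back-splice reads for Piglet-D30 replicates 1, 2 and 3, and 23583, 14305 and 12701 for Adult-D210 replicates 1, 2 and 3. A back-splice read crosses the joined exon ends of a circRNA, so its count does not grow with the length of the circRNA. Levels are given as SRPBM, the back-splice reads per 1000000000 mapped reads, divided by the read length of 150 nt. On this scale 1 read was worth 0.136 to 0.178 SRPBM, depending on the library.

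Piglet-D30 replicate 1 stands apart in this table. The table is held in part, with exonic circRNAs on chromosomes 7, 8, 12 and 13 only, and none of the 2552 was without a read in Piglet-D30 replicate 1. In the other 5 libraries, 1004 to 1247 of them had a read. WDFY3 circRNAs without a read in Piglet-D30 replicate 1 were not analysed here, so that sums over the gene, numbers of detected circRNAs and counts of circRNAs that were lower or higher in the adults lean towards the piglets by construction. The WDFY3 sum, its share of exonic reads and its ratios to other hosts are given with and without Piglet-D30 replicate 1. Leaving that library out of a value does not undo the selection, since the circRNAs counted stay the same. Shares of starts, ends and circRNAs likewise leave out any circRNA read in the adults only.

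All 27 circRNAs lie on the plus strand of chromosome 8 and were annotated to 1 transcript, ENSSSCT00000010109. They fall between positions 143239037 and 143410845, a stretch of 171809 nt, in the coordinates of the deposited table, for which the submitters' processing notes name the Sscrofa10.2 build. Their genomic span ran from 526 nt in circRNA10490 to 36345 nt in circRNA10469, with a median of 7830 nt. For exonic circRNAs of other hosts the median span was 8743 nt. The WDFY3 circRNAs contained 2 to 11 exons with a median of 4, the same median as in the other hosts. The highest number was that of circRNA10492, from position 143394263 to 143410845, which had 1 read.

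None of the 27 consisted of 1 exon, against 3.88% of the exonic circRNAs of other hosts. The fewest, 2 exons, were found in 8 of them, circRNA10466, circRNA10471, circRNA10475, circRNA10481, circRNA10482, circRNA10484, circRNA10487 and circRNA10490. At the other end, 4 had more than 7 exons. Back-splice reads of these long circRNAs were few, and only circRNA10488, with 8 exons, reached 10 reads over the 6 libraries.

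The 27 circRNAs used 16 starts and 20 ends, 27 of the 172 pairs in which a start precedes an end. Of these, 10 starts and 14 ends were used by 1 circRNA each. A start or an end was shared with another WDFY3 circRNA in 23 cases, and 4 circRNAs shared neither, among them circRNA10481. By overlap of their spans they form 7 separate groups along the gene, of which the first holds circRNA10466 to circRNA10472 and the second circRNA10473 to circRNA10480.

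**Figure D1:**
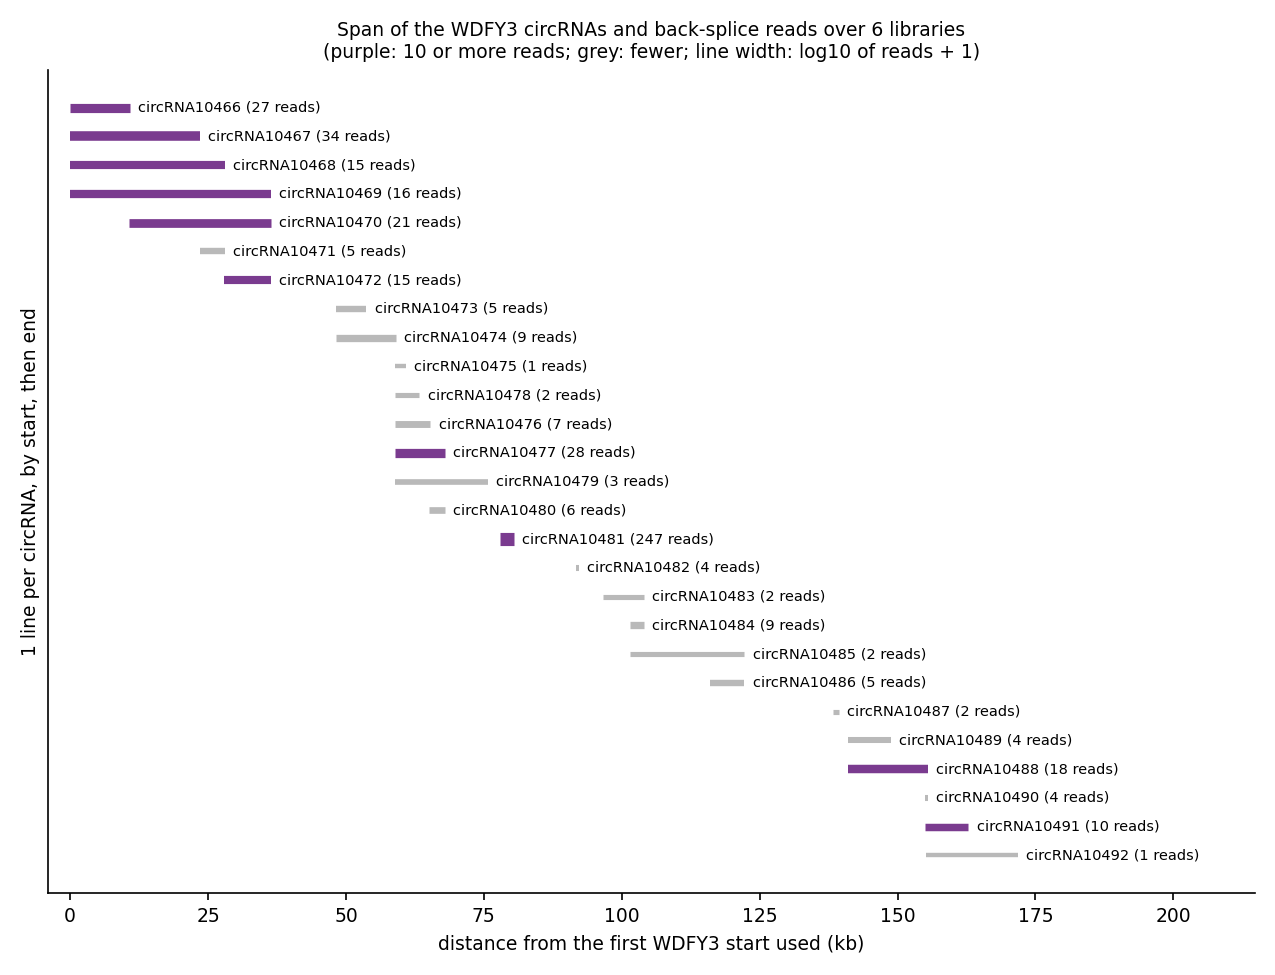
Span of each WDFY3 circRNA, drawn as 1 line per circRNA against the distance in kb from the first start used, with line width by log10 of its back-splice reads over the 6 libraries plus 1. Purple lines mark the 10 circRNAs with at least 10 reads, and the short line of circRNA10481, with 247 reads, overlaps no other.

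Among starts shared by several circRNAs, the one with the most reads was the position furthest upstream, 143239037, which was joined to 4 ends in circRNA10466, circRNA10467, circRNA10468 and circRNA10469. Its upstream intron measured 63606 nt, and 2.94% of the 1667 distinct upstream introns in the table were longer. From the flanking introns, 10 exons could be placed with both edges. The first exon of these 4 circRNAs measured 211 nt, and the exons that follow it 124, 110 and 162 nt. The spliced lengths were thus 335 nt in circRNA10466, 445 nt in circRNA10467 and 607 nt in circRNA10468, each adding 1 exon to the one before.

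Together the 4 circRNAs from position 143239037 had 27, 16 and 24 reads in the piglets and 9, 12 and 4 reads in the adults. This was 13.5%, 17.6% and 27% of the WDFY3 reads in the piglets and 30.0%, 27.9% and 8.16% in the adults. The shares of both stages overlapped, and the adults held both the highest and the lowest of the 6.

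The start at position 143297969 was joined to 5 ends, more than any other, in circRNAs of 2 to 9 exons. These 5 circRNAs had 15, 13 and 6 reads in the piglets and 1, 2 and 4 reads in the adults, 41 in all, and 28 of them belonged to circRNA10477. The other 4 had 1 to 7 reads each. Every adult library was below every piglet library in reads of this start, whereas its share of WDFY3 reads overlapped between stages (6.74% to 14.3% in piglets, 3.33% to 8.16% in adults).

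The end used by the most circRNAs was position 143275381, which closed circRNA10469, circRNA10470 and circRNA10472. It had 32, 5 and 10 reads in the piglets and 5, 0 and 0 reads in the adults. Piglet-D30 replicate 1 alone held 32 of its 52 reads, and in the adults the end was seen in replicate 1 only.

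**Figure D2:**
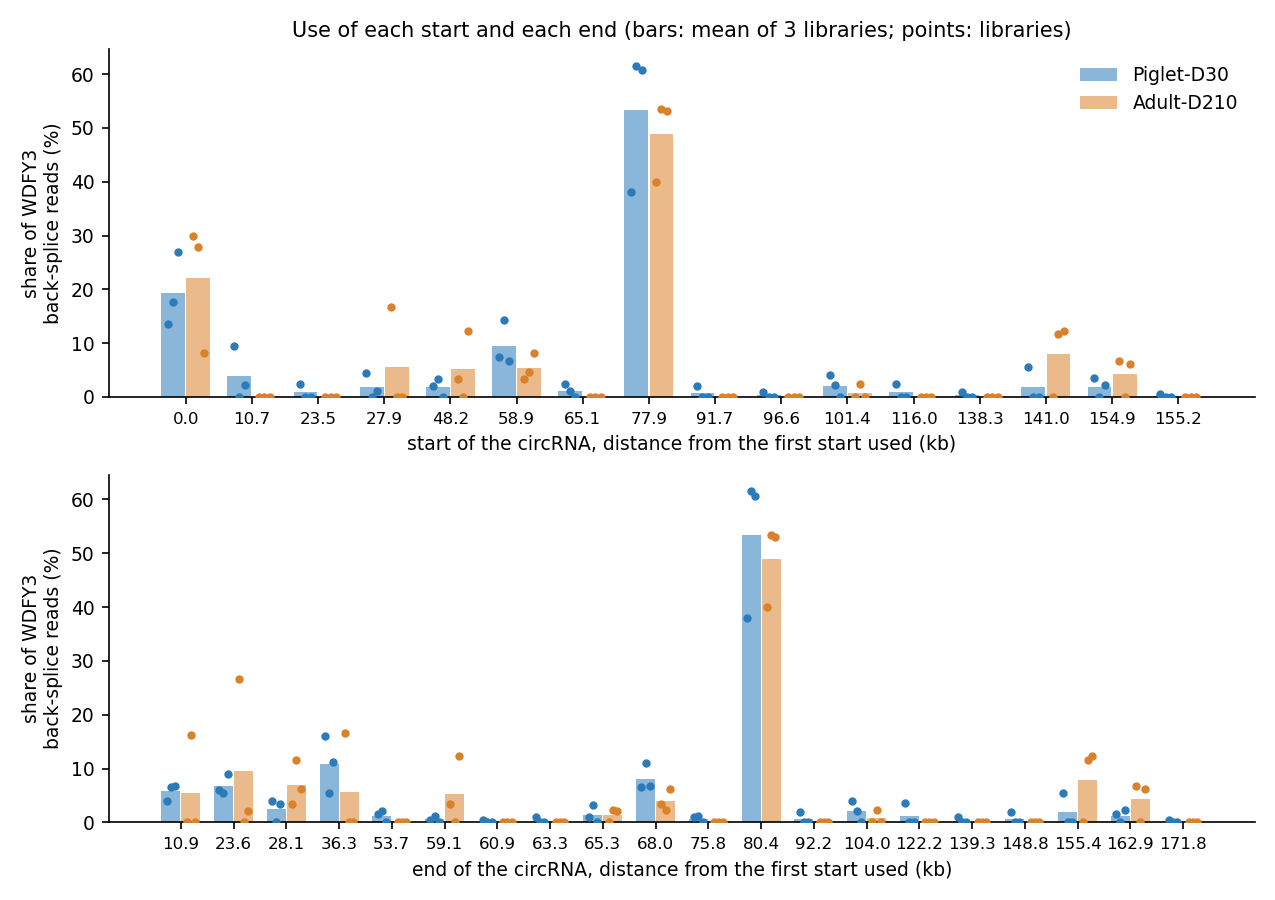
Share of WDFY3 back-splice reads (%) taken by each start (top) and each end (bottom), ordered by distance in kb from the first start used. Bars are means of 3 libraries per stage and points are libraries; the start and the end of circRNA10481 stand highest at both stages, and the points of Piglet-D30 and Adult-D210 overlap there.

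circRNA10481 was the dominant WDFY3 circRNA in every library. It joins position 143319426 back to 143316894, spans 2533 nt with 2 exons, and lies between introns of 2080 nt upstream and 1317 nt downstream, the latter the shortest downstream intron of the 27. No other WDFY3 circRNA used its start or its end, so the most used start and the most used end are the same 247 reads as the circRNA itself, 49.2% of the 502 WDFY3 reads.

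circRNA10481 had 76, 56 and 54 reads in Piglet-D30 replicates 1, 2 and 3, and 12, 23 and 26 in Adult-D210 replicates 1, 2 and 3. In SRPBM these were 13.6, 8.56 and 8.29 in the piglets and 1.63, 3.79 and 3.55 in the adults. All 3 piglet libraries were above all 3 adult libraries, Piglet-D30 replicate 1 was the highest and Adult-D210 replicate 1 the lowest. The means were 10.1 ± 2.97 SRPBM (SD, n = 3) in Piglet-D30 and 2.99 ± 1.19 SRPBM (SD, n = 3) in Adult-D210, a 3.39-fold higher level in the piglets, and 2.82-fold without Piglet-D30 replicate 1. By mean SRPBM it ranked 67 among the 2552 exonic circRNAs in Piglet-D30 and 184 in Adult-D210.

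As a share of WDFY3 reads, circRNA10481 made up 38%, 61.5% and 60.7% in the piglets and 40.0%, 53.5% and 53.1% in the adults. Replicate 1 was the lowest in each stage and the ranges overlapped. The 95% Wilson interval of the share, which covers counting error only, was 31.6% to 44.9% in Piglet-D30 replicate 1 and began at 50.3% or higher in the other 2 piglet libraries. Without the 11 circRNAs that had reads in Piglet-D30 replicate 1 only, its share there was 45.2%. The piglet mean was 53.4% ± 13.3 (SD, n = 3) and the adult mean 48.8% ± 7.67 (SD, n = 3). These means lay further apart than replicates 2 and 3 of either stage, but closer than the lowest and highest library of either stage (exact two-sided permutation test of the means, p = 0.6). With 3 libraries against 3 the smallest p this test can give is 0.1. The difference of −4.55 percentage points depended on single libraries and on the circRNAs counted. It was −7.15 among circRNAs with at least 10 reads. With all of them it was −12.3 without Piglet-D30 replicate 1 and −6.87 without Adult-D210 replicate 2, but −0.49 and −0.92 without Piglet-D30 replicates 2 and 3 and −0.13 without Adult-D210 replicate 1.

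Over the 6 libraries, 10 WDFY3 circRNAs had at least 10 reads and were tested for a change with stage, and 17 had 1 to 9 reads, 71 reads in all. Of these 17, 11 had reads in Piglet-D30 replicate 1 and in no other library, with 1 to 5 reads each and 32 together. That was 40.7% of the 27, against 25.3% of the exonic circRNAs of other hosts. A read in at least 1 adult library was found for 11 of the 27, and a read in all 6 libraries for circRNA10477 and circRNA10481 only. Since a count of 0 allows up to 3 reads, a circRNA without reads was not detectable at this depth rather than absent.

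The 10 tested members are given in their order along the gene. circRNA10466 (143239037 to 143249892) had 8, 6 and 6 reads in the piglets and 0, 7 and 0 in the adults. All piglet libraries had it, and in the adults replicate 2 alone held it at a level within the piglet range. circRNA10467 (143239037 to 143262616), the second most abundant with 34 reads, had 12, 5 and 8 reads in the piglets and 8, 0 and 1 in the adults. Adult-D210 replicate 1 thus overlapped the piglets and the other adult libraries were at or near 0. circRNA10468 (143239037 to 143267112) had 3, 0 and 3 reads in the piglets and 1, 5 and 3 in the adults, with both stages at similar low counts.

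circRNA10469 (143239037 to 143275381), the widest, had 4, 5 and 7 reads in Piglet-D30 and 0 in each Adult-D210 library. Its levels were 0.714, 0.764 and 1.07 SRPBM in the piglets, close to each other and all above the adults. Against a floor of 3 reads per adult library, it was at least 1.95-fold lower in Adult-D210, and at least 2.10-fold lower without Piglet-D30 replicate 1.

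circRNA10470 (143249769 to 143275381) shares the end of circRNA10469 and has 6 exons in place of 7, the first exon being left out. It had 19, 0 and 2 reads in Piglet-D30 and 0 in each Adult-D210 library. Nearly all reads came from Piglet-D30 replicate 1, and the piglet range overlapped the adults at 0. Against the same floor the piglet mean was 2.82-fold higher, again a description, but without that library the piglets too were under the floor and no fold can be given. circRNA10472 (143266951 to 143275381) had 9, 0 and 1 reads in the piglets and 5, 0 and 0 in the adults, so replicate 1 held most reads at both stages.

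circRNA10477 (143297969 to 143307020), with 6 exons, had 8, 9 and 6 reads in the piglets and 1, 1 and 3 in the adults. In SRPBM these were 1.43, 1.38 and 0.921 in the piglets and 0.136, 0.165 and 0.410 in the adults. The piglet libraries were all above the adult libraries, and Piglet-D30 replicate 1 was not set apart from the others. The mean was 1.24 ± 0.278 SRPBM (SD, n = 3) in Piglet-D30 and 0.237 ± 0.151 SRPBM (SD, n = 3) in Adult-D210.

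The 2 remaining members lie at the downstream end. circRNA10488 (143380055 to 143394475) had 7, 0 and 0 reads in the piglets and 0, 5 and 6 in the adults. Within each stage some libraries were at 0 and others between 5 and 7, so the stages overlapped. circRNA10491 (143393950 to 143401890) had 3, 0 and 2 reads in the piglets and 2, 0 and 3 in the adults, and the stages had the same counts in another order.

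**Figure D3:**
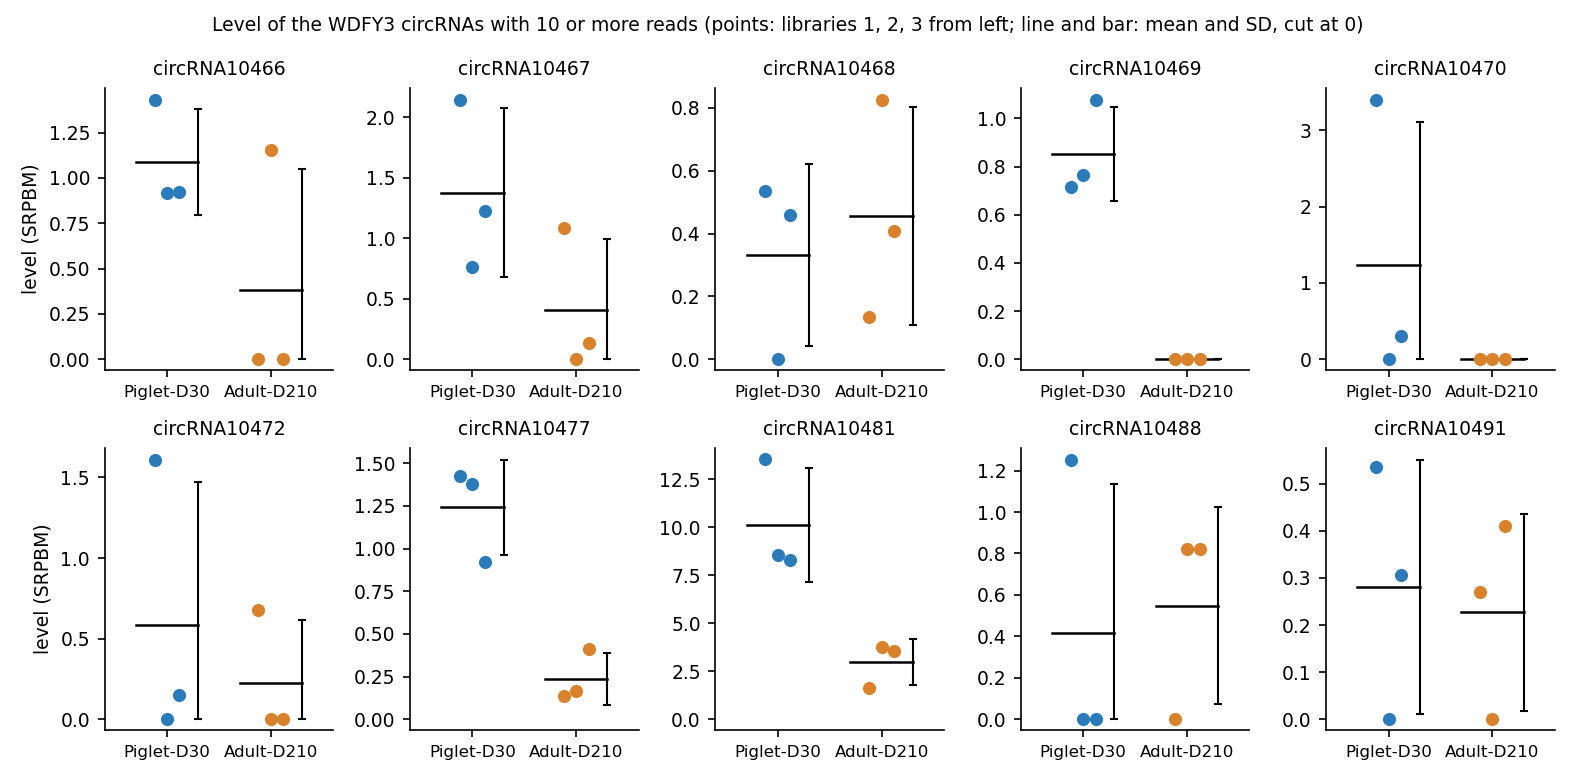
Level in SRPBM (vertical axis, a separate scale per panel) of the 10 tested WDFY3 circRNAs in each Piglet-D30 and Adult-D210 library, with points for replicates 1, 2 and 3 from left to right and a line and bar for mean and SD. In circRNA10469, circRNA10477 and circRNA10481 the stages do not overlap, and in circRNA10470 a single piglet library carries the mean.

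Stage change was tested with the edgeR quasi-likelihood test on all 1341 circRNAs with at least 10 reads, intronic ones included. Calls needed a Benjamini-Hochberg adjusted p under 0.05 together with a log2 fold change of 1 or more in either direction. By this rule 0 of the 10 tested WDFY3 circRNAs were called, against 111 of all 1341 (8.28%), of which 65 (4.85%) were lower and 46 higher in Adult-D210. At an unadjusted p under 0.05 there were 3 WDFY3 circRNAs, circRNA10469, circRNA10470 and circRNA10481, against 337 of all 1341 (25.1%). Of these 3, circRNA10469 and circRNA10470 reached 10 reads through the piglets alone, so their count is a description. DESeq2 had 2 of the 10 at an unadjusted p under 0.05, against 215 of the 1341 (16.0%). It gave an adjusted p for 5 of the 10 only, of which 0 were called, against 104 of the 925 (11.2%) with an adjusted p, and none for circRNA10468, circRNA10469, circRNA10470, circRNA10472 and circRNA10491.

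The scale of the comparison matters for every value that follows. With TMM normalization of back-splice reads the median log2 fold change over all 1341 circRNAs was −0.42, and with mapped reads as library size it was −0.90, a shift of −0.48. On the latter scale 77 circRNAs were called, 68 lower and 9 higher, and 0 of the WDFY3 circRNAs. The changes of circRNA10481, circRNA10477 and the WDFY3 sum are therefore also given relative to the median of all circRNAs or hosts tested.

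For circRNA10481, the log2 fold change was −1.19 (standard error SE 0.42) and the Benjamini-Hochberg adjusted p of the edgeR quasi-likelihood test 0.10. Relative to the median of all circRNAs it was −0.77. With mapped reads as library size it was −1.76, or −0.86 relative to that median, with a Benjamini-Hochberg adjusted p of 0.0577 in the edgeR quasi-likelihood test. All 3 adult libraries were below all 3 piglet libraries, and the adjusted p did not pass the limit on either scale or in any of the 15 alternative fits by edgeR or DESeq2, where it ran from 0.0577 to 0.294. Fits that left out 1 library gave log2 fold changes from −1.53 to −0.77, the smallest in size without Adult-D210 replicate 1.

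For circRNA10477 the log2 fold change was −1.80 (SE 0.93), −1.38 relative to the median, and the Benjamini-Hochberg adjusted p of the edgeR quasi-likelihood test 0.230. Without Adult-D210 replicate 3 the log2 fold change was −2.61, and without Adult-D210 replicate 1 it was −1.34. For circRNA10469 and circRNA10470, at 0 in every adult library, the Benjamini-Hochberg adjusted p of the same edgeR quasi-likelihood test was 0.107 and 0.148. The other tested members had log2 fold changes from −1.16 in circRNA10467 to 1.04 in circRNA10488, each with an SE of 0.94 or more, and the size of each depended on single libraries. Without Adult-D210 replicate 1, circRNA10467 was at −3.25, circRNA10466 at −0.36, circRNA10468 at 1.51 and circRNA10488 at 1.79. Without Adult-D210 replicate 2, circRNA10467 was at −0.66, circRNA10468 at 0.27 and circRNA10488 at 0.69, and no adult read of circRNA10466 was left. Without Adult-D210 replicate 3, circRNA10466 was at −0.64 and circRNA10488 at 0.39. Without Piglet-D30 replicate 1 no piglet read of circRNA10488 was left, and without Piglet-D30 replicate 2 or 3 it was at 0.54 or 0.56 and circRNA10468 at 0.41 or 1.38. circRNA10472 turned from −0.63 to 1.63 without Piglet-D30 replicate 1, and circRNA10491 from 0.32 to −0.16 without Piglet-D30 replicate 2 or with mapped reads as library size, and to −0.49 without Adult-D210 replicate 3, so that neither kept its direction.

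Over the 10 tested members the median log2 fold change was −1.14 and 7 of the 10 were below 0, against a median of −0.42 and 60.2% below 0 over all 1341 circRNAs. With mapped reads as library size the median of the members was −1.61 and 8 were below 0, against −0.90 and 71.8%. On this scale, which is that of the bounds, their median was −1.31 with circRNA10469 and circRNA10470 set to their bounds, of which that of circRNA10470 rests on Piglet-D30 replicate 1. Of the members below 0 on either scale, only circRNA10481 reached 10 reads in the adults alone. These medians and counts below 0 are therefore a description. The stages did not overlap in SRPBM in 3 of the 10 members, circRNA10469, circRNA10477 and circRNA10481, all lower in the adults, and in 0 in the other direction. Of these 3, circRNA10469 and circRNA10477 reached 10 reads only through the piglets, so the count is a description. Among the 1270 tested exonic circRNAs, 308 (24.3%) were lower in every adult library than in every piglet library and 48 were higher, and with 3 libraries against 3 chance gives 10% over both directions. That share assumes libraries on an equal footing, whereas the exonic circRNAs held here all have reads in Piglet-D30 replicate 1, which favours the direction lower in the adults in WDFY3 and in the other hosts.

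**Figure D4:**
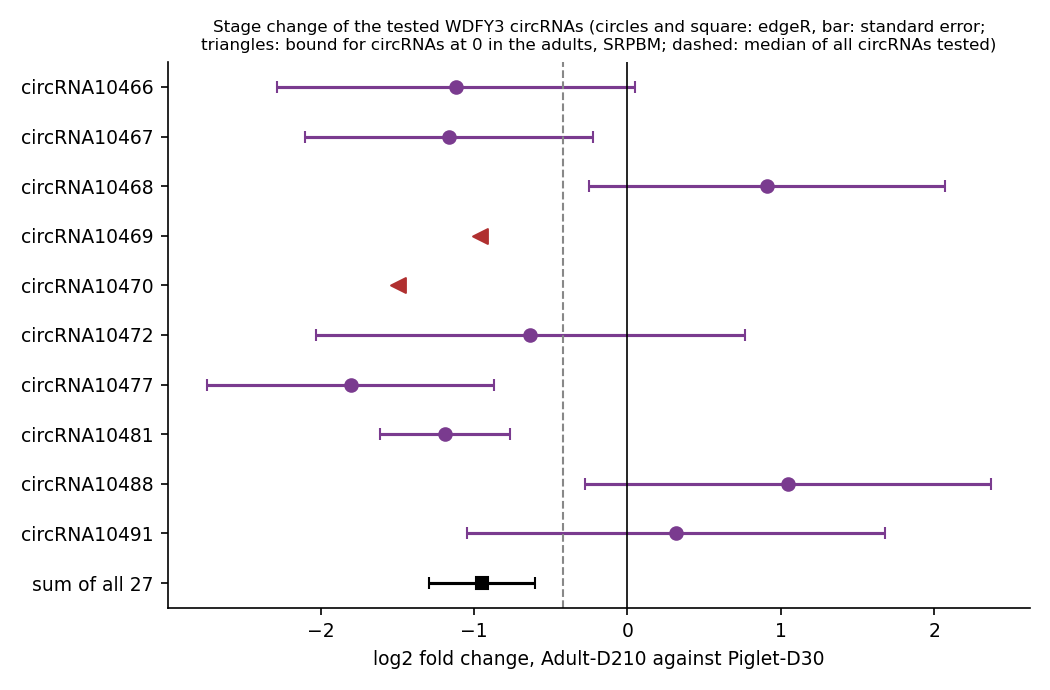
Log2 fold change of Adult-D210 against Piglet-D30 (horizontal axis) for the 10 tested WDFY3 circRNAs and for the summed reads of all 27, as edgeR estimates with standard errors derived from the F statistic of the test. Triangles are the bounds of circRNA10469 and circRNA10470 on the SRPBM scale. The dashed line is the median of −0.42 over all circRNAs tested with TMM. With mapped reads as library size, the scale of the bounds, that median was −0.90.

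Summed over its 27 circRNAs, WDFY3 had 200, 91 and 89 back-splice reads in Piglet-D30 replicates 1, 2 and 3, and 30, 43 and 49 in Adult-D210 replicates 1, 2 and 3. The summed levels were 35.7, 13.9 and 13.7 SRPBM in the piglets and 4.07, 7.09 and 6.69 SRPBM in the adults. Every piglet library was above every adult library, and Piglet-D30 replicate 1 was far above the other 2 piglets. The means were 21.1 ± 12.6 SRPBM (SD, n = 3) in Piglet-D30 and 5.95 ± 1.64 SRPBM (SD, n = 3) in Adult-D210, 3.54-fold higher in the piglets (exact two-sided permutation test, p = 0.1, the smallest possible). Without Piglet-D30 replicate 1 the piglets were 2.32-fold higher.

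The number of WDFY3 circRNAs with a read was 27, 11 and 9 in the piglets and 7, 7 and 8 in the adults. The value of Piglet-D30 replicate 1 is fixed by the table, and the other 2 piglet libraries were 1 to 4 circRNAs above the adults. Leaving out circRNA10481, the remaining WDFY3 reads were 124, 35 and 35 in the piglets and 18, 20 and 23 in the adults. Their summed level was 3.70-fold higher in Piglet-D30 with all libraries and 1.81-fold higher without Piglet-D30 replicate 1.

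As a share of all exonic back-splice reads, WDFY3 made up 0.632%, 0.531% and 0.505% in the piglets and 0.133%, 0.318% and 0.408% in the adults. The stages did not overlap on this scale either, and the piglet libraries lay closer together than the adult ones. The mean share was 0.556% ± 0.0673 (SD, n = 3) against 0.286% ± 0.140 (SD, n = 3), 1.94-fold higher in the piglets (exact two-sided permutation test, p = 0.1, the smallest possible), and 1.81-fold without Piglet-D30 replicate 1.

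**Figure D5:**
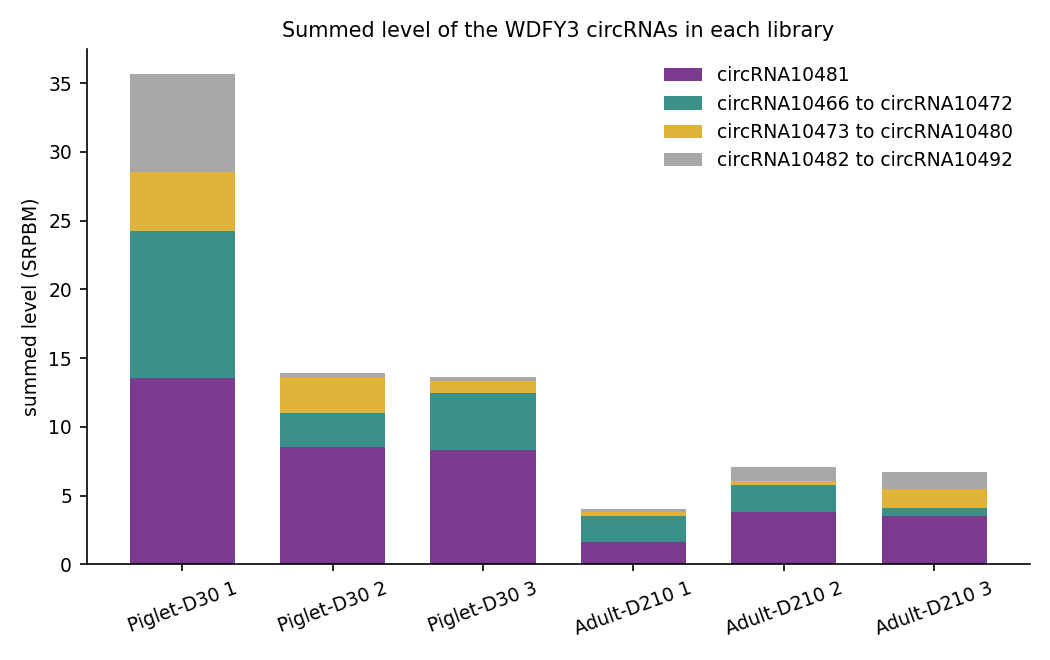
Summed level in SRPBM (vertical axis) of the WDFY3 circRNAs in each library, stacked by circRNA10481, the first and the second overlap group and the circRNAs downstream of circRNA10481. The bar of Piglet-D30 replicate 1 reaches 35.7 SRPBM, the other piglets 13.9 and 13.7, and the adults 4.07 to 7.09.

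The summed reads were tested with the same edgeR test over all 478 hosts with at least 10 exonic back-splice reads. For WDFY3 the log2 fold change was −0.95 (SE 0.35), with a Benjamini-Hochberg adjusted p of 0.0436 in the edgeR quasi-likelihood test. All 3 adult libraries were lower, but the change was just short of the limit of 1 in size, so that WDFY3 was not called. The median of all hosts was −0.32, which leaves −0.62 for WDFY3 relative to it. Of the 478 hosts, 70 (14.6%) were called lower and 35 higher. With mapped reads as library size the log2 fold change of WDFY3 was −1.81 and it was called, relative to a median of −1.08 and with 86 hosts called lower and 7 higher. Leaving out each library in turn gave log2 fold changes from −1.12 to −0.56, and Benjamini-Hochberg adjusted p-values of the edgeR quasi-likelihood test from 0.0410 to 0.300. Of these it was under 0.05 only without Adult-D210 replicate 3, where WDFY3 was called, and highest without Adult-D210 replicate 1. Over all 15 alternative fits by edgeR or DESeq2 the adjusted p ran from 0.0223 to 0.300 and was under 0.05 in 4. Without Piglet-D30 replicate 1 the log2 fold change was −0.82.

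Whether the mix of WDFY3 circRNAs differed between stages was tested by comparing the log2 fold change of each circRNA with that of the rest of its host. For WDFY3 as a whole the Benjamini-Hochberg adjusted p was 0.954 (edgeR quasi-likelihood fit, usage test with the Simes method, 255 hosts), and 1 of the 255 hosts (0.392%) was called. Of single circRNAs, 0 of the 10 of WDFY3 were called, against 1 of 1075 (0.093%) over all hosts tested. At an unadjusted p under 0.05 there were 2, circRNA10469 and circRNA10470, against 64 of the 1075 (5.95%). These 2 share an end, had reads in the piglets only and so reached 10 reads through that stage alone. Their count is therefore a description, and no usage difference is read from it. circRNA10481 differed from the rest of WDFY3 by −0.05 in log2 fold change. No difference in usage was detectable at this depth, with 30 to 49 WDFY3 reads in the adult libraries. A WDFY3 circRNA without a read in Piglet-D30 replicate 1 could not enter this test, so it could not show a circRNA used in the adults only.

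By overlap group, the first group of 7 circRNAs had 60, 16 and 27 reads in the piglets and 14, 12 and 4 in the adults. Its share of WDFY3 reads was 30.0%, 17.6% and 30.3% in the piglets and 46.7%, 27.9% and 8.16% in the adults, where it varied more. The last group, circRNA10488 to circRNA10492, had 19, 0 and 2 reads in the piglets and 2, 5 and 9 in the adults. Its share was 9.50%, 0% and 2.25% in the piglets and 6.67%, 11.6% and 18.4% in the adults. The ranges of both groups overlapped between stages.

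WDFY3 was compared with PTPN13, on the same chromosome, and TIAM1, with the same number of circRNAs. PTPN13 encodes a protein tyrosine phosphatase and TIAM1 an exchange factor for the small GTPase RAC. PTPN13 hosted 32 circRNAs with 22 starts and 18 ends, and TIAM1 27 with 14 starts and 10 ends. The dominant circRNA held 23.9% of the reads in PTPN13 and 44.2% in TIAM1, against 49.2% in WDFY3.

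PTPN13 had 407, 229 and 180 reads in the piglets and 73, 71 and 35 in the adults. The log2 ratio of WDFY3 to PTPN13 reads was −1.03, −1.33 and −1.02 in the piglets and −1.28, −0.72 and 0.49 in the adults. The ranges overlapped, with a difference between the means of 0.62 (exact two-sided permutation test, p = 0.3, adjusted over the 2 comparisons 0.3). Without Adult-D210 replicate 3 the difference was 0.12, without Adult-D210 replicate 1 it was 1.01, and without Piglet-D30 replicate 1 it was 0.67.

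TIAM1 had 226, 64 and 77 reads in the piglets and 126, 63 and 59 in the adults. The log2 ratio of WDFY3 to TIAM1 reads was −0.18, 0.51 and 0.21 in the piglets and −2.07, −0.55 and −0.27 in the adults. All adult ratios were below all piglet ratios, with a difference between the means of −1.14 (exact two-sided permutation test, p = 0.1, the smallest possible, adjusted over the 2 comparisons 0.2). Without Adult-D210 replicate 1 the difference was −0.59, and without Piglet-D30 replicate 1 it was −1.32.

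Among the 216 other hosts with at least 100 exonic back-splice reads, the pattern over the 6 libraries was most like that of WDFY3 in SLC33A1 (Pearson r 0.988), PTPRG (0.984) and ENSSSCG00000012002 (0.974), the identifier of ROBO2. The measure was log2 of summed reads per 1000000 mapped reads, with 1 read added, and it is given as a description over 6 libraries of 2 stages. SLC33A1, an acetyl-CoA transporter, had 5.09, 3.35 and 2.67 reads per 1000000 mapped reads in the piglets and 1.44, 2.0 and 1.89 in the adults. PTPRG, a receptor tyrosine phosphatase, had 3.05, 0.321 and 0.553 in the piglets and 0, 0.0742 and 0.0205 in the adults. ROBO2, an axon guidance receptor, had 1.66, 0.573 and 0.438 in the piglets and 0.0203, 0.0742 and 0.0410 in the adults. On this scale WDFY3 was at 5.35, 2.09 and 2.05 in the piglets and 0.610, 1.06 and 1.0 in the adults. In all of these hosts Piglet-D30 replicate 1 was the highest library.

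Of the 66 other genes in a list of autophagy genes, 8 hosted circRNAs in the part of the table held here, with 37 exonic and 4 intronic ones. Their summed reads were 213, 101 and 101 in the piglets and 142, 76 and 91 in the adults. Most came from ATG2B, a lipid transfer protein of the growing autophagosome membrane, with 392 reads. Of these circRNAs 11 were tested, from ATG2B, ATG7, PIK3R4 and RUBCN. By edgeR 0 of the 11 were called in either direction, against 8.28% of all circRNAs tested. By DESeq2 0 of the 10 with an adjusted p were called, against 11.2% of all circRNAs with one. With so few members, 0 calls is not read as a difference from these shares. At an unadjusted p under 0.05 there was 1 in each, against 25.1% and 16.0% of all circRNAs tested. Their median log2 fold change was 0.08, against −0.42 over all circRNAs tested, and 7 of the 11 were above 0, against 39.8%. With mapped reads as library size their median was −0.38, against −0.90, and 3 of the 11 were above 0, against 28.2%.

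Relatives of WDFY3 by domain gave few reads in the part of the table held here. That part lacks the exonic circRNAs of most chromosomes, so a gene without circRNAs here may still be a host. Of the proteins with a BEACH domain, only WDFY4 was a host, with 2 intronic circRNAs and 5 reads, and of those with a FYVE domain 5 were hosts, led by ANKFY1 with 3 reads. None of their circRNAs reached 10 reads, so none was tested.

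The labelled tissue could be checked only through circRNAs, which do not measure the mRNA of a marker. Of 22 germ cell markers, ACRV1 and KIT were hosts, with 0, 0 and 4 reads in the piglets and 0, 0 and 1 in the adults, and DAZL, DDX4, SYCP3, PRM1 and the rest had no circRNA in the table analysed here. Of 10 Sertoli cell markers only GATA4 was a host, with 7, 0 and 1 reads in the piglets and 0 in the adults, and SOX9, AMH and the rest had none. Of 6 Leydig cell markers CYP17A1 and STAR were hosts, with 12, 6 and 4 reads in the piglets and 12, 14 and 16 in the adults, and CYP17A1 held 56 of them. ACTA2 of 3 peritubular markers and CD163 of 3 macrophage markers had 1 read each, both in Piglet-D30 replicate 1, and the 4 endothelial markers had none. The part of cell composition in the WDFY3 values was not tested.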

How the data were processed

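Per the paper's methods and the labels, the authors used Cutadapt for trimming and TopHat2 for mapping, and searched what stayed unmapped for back-splice junctions with TopHat-Fusion and CIRCExplorer2. The deposited table gives the raw count of reads over each junction in each library. It also gives SRPBM, a signal that the authors made from the count, the mapped reads and the read length. The members and the gene lists were chosen with earlier results of these data known. Named circRNAs are the WDFY3 circRNAs with at least 10 reads and those with the widest or narrowest span or the most or fewest exons, and the 3 hosts most like WDFY3 over the libraries. For 1 of these the table gives an identifier only, and its symbol was looked up in a table of gene names.

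Counts were tested with edgeR 4.0.16 in R 4.3.3 (TMM, robust quasi-likelihood fit, Benjamini-Hochberg adjustment over all features tested), with DESeq2 1.42.0 as an alternative, and sums per host in the same way. The SE given with edgeR is the size of the log2 fold change divided by the square root of the F statistic of that test. Usage was tested with diffSpliceDGE. The code was tested on simulated data. Exact permutation tests over libraries were run in SciPy 1.17.1 (Python 3.11.15). Mapped reads, 37364412 to 49179118 per library, were recovered from count and SRPBM. Replicates differed by more than counting noise (chi-square per degree of freedom 3.87 to 4.97). Exons were placed from the flanking introns in the table. The study's methods name 3 boars per group and 6 libraries, but not that each library came from 1 boar, as is assumed here. If it did not, p-values measure only the spread between libraries, which may be technical.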

Additional observations from a re-analysis of the deposited data

How the results depend on the processing

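Of 142 values of the 10 tested WDFY3 circRNAs under the 15 alternatives, 138 kept their direction. An adjusted p was given for 137, of which 0 were called, and DESeq2 gave none for the other 5 (circRNA10468, circRNA10469, circRNA10470, circRNA10472 and circRNA10491). circRNA10491 (log2 fold change 0.32) was at −0.16 with mapped reads as library size and between −0.49 and 0.84 without 1 library, and circRNA10472 (−0.63) between −4.55, a fitted value with no adult read left, and 1.63 without 1 library. The summed WDFY3 reads were called without TMM (log2 fold change −1.06) and with mapped reads as library size (−1.81), and ranged from −1.12 to −0.56 without 1 library. The summed level was 1.94-fold higher in piglets as a share of exonic reads, in place of 3.54-fold in SRPBM. Calls over all circRNAs ranged from 37 to 78 without 1 library, in place of 111. The cause was not tested. The 5 tested WDFY3 circRNAs under 20 reads have no value at that filter, and circRNA10470, circRNA10472 and circRNA10491 have none with Piglet-D30 replicate 1 left out of filter and test.

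With the replicate number as a term (replicate block), 33 circRNAs were called, all among the 111, and the WDFY3 sum was at −0.98. Deviations of same-numbered libraries correlated at 0.05, −0.01 and −0.03, and not every library correlated best with its own number. Whether same-numbered libraries share more than a number cannot be told from these values. Leaving Piglet-D30 replicate 1 out of both filter and test, an alternative chosen after seeing the data, gave 74 calls, 0 of them in WDFY3, and −0.82 for the WDFY3 sum. Depth limits all values below about 10 reads.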
